A study of Homo sapiens with 8 samples.

Results

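The comparison described here is between the 2 libraries labelled *ERF* KD and the 2 labelled *CIC* KO, which were set against each other directly. They are 4 of the 8 RNA-seq libraries of the series and were chosen by their labels alone. All 8 libraries are from PNT2, an immortalized epithelial line of the human prostate that was grown in DMEM with fetal bovine serum, and each of the 4 groups holds a replicate A and a replicate B. WT is labelled as carrying neither loss, and whether it held a control hairpin or guide was not known here. *ERF* KD cells carry a short hairpin RNA against *ERF* and were selected with puromycin, *CIC* KO cells carry a guide RNA against *CIC* and were selected with blasticidin, and *ERF* KD + *CIC* KO cells carry both. The study made *ERF* KD lines with 2 hairpins and *CIC* KO lines with 2 guides, and made its double lines from 1 of these hairpins with each guide. The sources used here do not say whether the letters A and B stand for hairpins, guides, cultures or passages, or whether a line was a clone or a pool. The sample titles and the names of the 4 single-loss files give these groups opposite letters. The genotype of the double group is labelled CIC-ERF codeletion, and this group is named *ERF* KD + *CIC* KO or the double line here. The other labels are kept throughout. Every difference is given as labelled *ERF* KD minus labelled *CIC* KO unless another comparison is named.

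*CIC* (Capicua) and *ERF* (ETS2 repressor factor) are neighboring genes at 19q13.2, and both encode transcriptional repressors. CIC is an HMG box protein that binds a TGAATGAA-like octamer and silences the PEA3 family of ETS activators (*ETV1*, *ETV4* and *ETV5*) together with feedback inhibitors of MAPK signaling of the DUSP, SPRY and SPRED families. ERK phosphorylation relieves this repression, so that these genes serve as a read-out of CIC activity. ERF binds the GGAA core of ETS sites, where it competes with activating ETS factors, and is exported from the nucleus after ERK phosphorylation. In epithelial cells, cadherin junctions, desmosomes and keratins are kept on by regulators such as GRHL2 and OVOL, which oppose the repressors ZEB1 and ZEB2. ESRP proteins regulate the splicing of epithelial isoforms.

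The promoter windows of the CIC-repressed genes are given first, since the difference between the groups in these genes is what bears most directly on CIC. RefSeq windows (GRCh38.p14), which run from 250 bases before to 50 bases after a transcript start, were used for 8 of the 12 genes (*ERF*, *CIC* and the 10 CIC-repressed genes), 20 windows in all. The CIC octamer was searched on both strands as TGAATGAA, TGAATGGA, TCAATGAA or TCAATGGA, and 3.75% of all 34943 windows held at least 1 of these. Among the genes looked at, 3 windows of 3 genes held it (*ETV1*, *DUSP6* and *CIC*). The 250 bases before the start of *ETV1* (chr7:13991426-13991675, minus strand) and of *DUSP6* (chr12:89352502-89352751, minus strand) are printed because the first is the gene with the largest difference in the list and the second was not called. Capitals mark the octamer, which lies 125 bases before the start in *ETV1* and is read from the opposite strand in *DUSP6*, 24 bases before the start.
*ETV1*: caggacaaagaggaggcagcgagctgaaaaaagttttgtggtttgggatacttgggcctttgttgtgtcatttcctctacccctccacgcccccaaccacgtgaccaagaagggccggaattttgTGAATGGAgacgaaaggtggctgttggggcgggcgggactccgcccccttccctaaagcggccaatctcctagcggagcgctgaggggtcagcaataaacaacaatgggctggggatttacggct
*DUSP6*: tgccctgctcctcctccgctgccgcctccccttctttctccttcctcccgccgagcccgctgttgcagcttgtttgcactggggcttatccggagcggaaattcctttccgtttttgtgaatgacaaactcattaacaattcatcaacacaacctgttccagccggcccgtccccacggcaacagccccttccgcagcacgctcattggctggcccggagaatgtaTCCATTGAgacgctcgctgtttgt
Another copy in the *DUSP6* window begins 1 base after the first base of the transcript and lies outside the printed stretch. The *ETV1* window also held the ETS hexamer CCGGAA, which was found on either strand in 17.2% of all windows. No octamer was found in the windows of *SPRY2*, *SPRED1*, *SPRY4* or *SPRED2*, and no window of *ETV4*, *ETV5*, *DUSP4* or *DUSP5* was used. A match of letters is a description and not a binding site.

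The 8 libraries held between 19477473 and 25813157 estimated counts, with 22230924 and 22092658 in labelled *ERF* KD and 22070066 and 22920344 in labelled *CIC* KO. Expression is given as CPM after TMM normalization, in which 3 counts, taken as the floor of detection, correspond to 0.125 to 0.165 CPM. Mitochondrial genes took 1.29% and 1.69% of the counts in labelled *ERF* KD (replicates A and B) and 1.996% and 1.14% in labelled *CIC* KO. Log2 differences, their standard errors (SE) and Benjamini-Hochberg adjusted p-values are from edgeR's quasi-likelihood test over 14653 genes with all 8 libraries in a single fit, and a gene with an adjusted p under 0.05 is called. "With the block" refers to the same fit with the replicate letter added. Nothing in the labels says that A and B came from separate cultures, so p-values measure the spread between these libraries, which may be technical.

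*ERF* (ENSG00000105722, chromosome 19, 42247572 to 42255157, minus strand, GRCh38) was the targeted gene that differed. It was 81.2 and 77.8 CPM in labelled *ERF* KD (mean 79.5, SD 2.43, n = 2) and 18.8 and 11.7 CPM in labelled *CIC* KO (mean 15.3, SD 4.98, n = 2). Thus the libraries labelled as the knockdown held more *ERF* mRNA than those labelled as the *CIC* knockout, by 2.38 on the log2 scale (SE 0.214, adjusted p = 0.000393, or 5.85e-05 with the block). *ERF* KD + *CIC* KO held 11.6 and 10.4 CPM and WT 55.8 and 55.9 CPM, so that the libraries labelled *CIC* KO lay nearer to the double line than to WT. Leaving out each library in turn gave differences from 2.09 to 2.75. Both annotated transcripts with most of the counts went the same way. *ERF-201* was 62.9 and 53.1 CPM in labelled *ERF* KD against 10.3 and 7.63 in labelled *CIC* KO, and *ERF-202* was 14.6 and 17.9 CPM against 5.90 and 2.89. *AC006486.1* overlaps *ERF* by 155 exonic bases on the same strand and was below 0.5 CPM on average in either group.

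*CIC* (ENSG00000079432, chromosome 19, 42268537 to 42295797, plus strand, GRCh38) was 108 and 109 CPM in the libraries labelled *ERF* KD and 132 and 131 CPM in those labelled *CIC* KO. The groups did not overlap, but the difference of -0.28 (SE 0.155) did not pass the test (adjusted p = 0.348, or 0.222 with the block). WT held 128 and 129 CPM and *ERF* KD + *CIC* KO 90.9 and 66.4 CPM. Cutting by Cas9 need not lower the mRNA of its target, so this gene checks the labels less directly than *ERF* does. By transcript, the long form *CIC-204* was 29.1 and 31.1 CPM in labelled *ERF* KD, 42.4 and 44.1 in labelled *CIC* KO, 39.3 and 46.2 in WT, and 25.4 and 16.8 in the double line. The short form *CIC-207* was 55.9 and 57.0 CPM in labelled *ERF* KD against 61.4 and 61.6 in labelled *CIC* KO. The gap between the groups was thus wider in the long form, by values with no test per transcript. The transcripts were chosen after their values were seen, and the reads that they share were divided between them by estimation.

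Of the 40 tested genes nearest to *ERF* and *CIC*, 20 on each side, 5 were called, beside 9.4% of all genes, and the median difference was 0.06 (range -2.17 to 1.86). *AXL*, a receptor tyrosine kinase, and *TGFB1*, which encodes the ligand TGF-beta 1, were higher in labelled *ERF* KD. *CEACAM1*, *LYPD3* and *CNFN*, which encode an adhesion molecule, a surface protein of squamous epithelium and a protein of the cornified envelope, were lower.

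Among 10 genes known to be repressed by CIC, which all passed the filter on low counts, 5 were called higher in labelled *ERF* KD and none lower, with and without the block, beside 3.75% of all genes called higher (7.56% with the block). Of the 10 differences 7 were positive and 3 negative, and the median was 0.67 (range -0.42 to 2.37), against 0.00 over all genes tested. The PEA3 factors had the 3 largest differences. *ETV1* was 70.7 and 49.4 CPM in labelled *ERF* KD and 11.8 and 11.4 CPM in labelled *CIC* KO, a difference of 2.37 (SE 0.201, adjusted p = 0.00028). WT held 11.4 and 11.7 CPM of it, so the labelled *CIC* KO libraries sat at the WT level for *ETV1*. Over the list, the median of labelled *CIC* KO minus WT was 0.31. *ETV5* was 109 and 82.6 CPM against 31.4 and 34.9 CPM, a difference of 1.53 (SE 0.194, adjusted p = 0.00214). *ETV4* was 65.5 and 51.0 CPM against 20.4 and 27.3 CPM, a difference of 1.29 (SE 0.211, adjusted p = 0.00723). In each of the 3 genes both libraries labelled *ERF* KD lay above both labelled *CIC* KO. *ERF* KD + *CIC* KO, in which both losses are meant to be present, had 19.5 and 22.4 CPM of *ETV1*, 61.8 and 62.8 of *ETV4*, and 66.5 and 55.4 of *ETV5*.

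**Figure D1:**
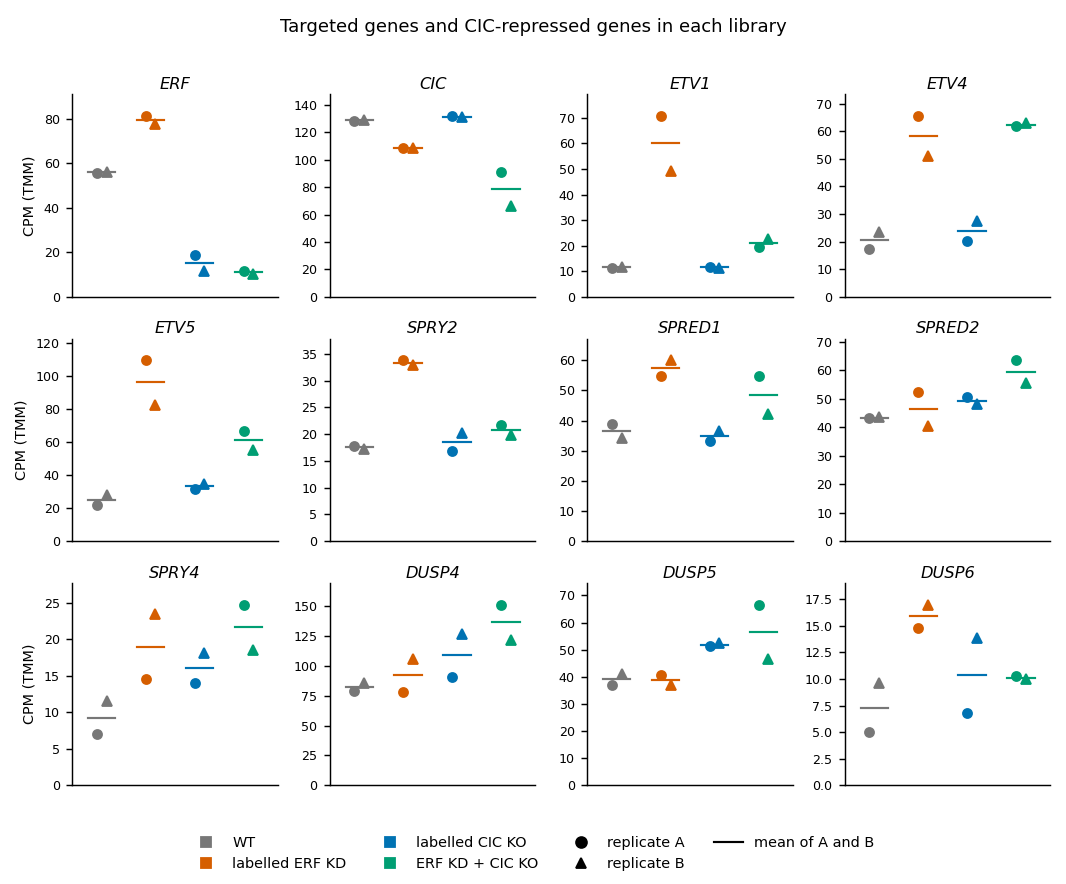
Each point is a library, circles for replicate A and triangles for B, and each bar is their mean. The vertical axis is expression in CPM from 0, with its own range for each gene, for *ERF*, *CIC* and the 10 CIC-repressed genes in the 4 groups. *ERF* lies at 81.2 and 77.8 CPM in labelled *ERF* KD and at 18.8 and 11.7 CPM in labelled *CIC* KO, and *ETV1*, *ETV4* and *ETV5* are also higher in labelled *ERF* KD.

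The feedback inhibitors of MAPK signaling separated the groups less. *SPRY2*, a Sprouty inhibitor of receptor tyrosine kinase signaling, was 33.8 and 32.9 CPM in labelled *ERF* KD and 16.8 and 20.2 CPM in labelled *CIC* KO, a difference of 0.85 (SE 0.156, adjusted p = 0.0119). *SPRED1*, which recruits neurofibromin to inhibit RAS, was 54.7 and 59.95 CPM against 33.2 and 36.4 CPM, a difference of 0.72 (SE 0.162, adjusted p = 0.0285). *DUSP6*, an ERK phosphatase, was 14.8 and 17.0 CPM against 6.83 and 13.9 CPM and was not called (difference 0.62, SE 0.382, adjusted p = 0.399). The 2 *DUSP6* values of labelled *CIC* KO lay farther apart than the groups' nearest libraries. *SPRY4*, *SPRED2*, *DUSP4* and *DUSP5* were not called either, with differences of 0.24, -0.09, -0.24 and -0.42. *DUSP5* ran opposite to the PEA3 genes in level, at 40.5 and 37.0 CPM in labelled *ERF* KD and 51.4 and 52.3 CPM in labelled *CIC* KO (adjusted p = 0.204). The calls of *ETV1* and *ETV5* held without any 1 of the 8 libraries. That of *ETV4* was lost without labelled *CIC* KO replicate A (difference 1.09, adjusted p = 0.0512), and that of *SPRY2* without that library or labelled *ERF* KD replicate A. That of *SPRED1* was lost in 5 of 8 fits, so that 2 of the list were called without labelled *CIC* KO replicate A and 3 without labelled *ERF* KD replicate A.

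Over all genes, 1377 of 14653 were called (9.4%), of which 549 were higher (3.75%) and 828 lower (5.65%) in labelled *ERF* KD than in labelled *CIC* KO. With the block, 2424 were called (16.5%), of which 1108 were higher (7.56%) and 1316 lower (8.98%), and these contained all of the 1377, with the same sign. The median absolute difference was 1.49 among the called genes and 0.27 among all genes. The largest differences lay mostly on the lower side: of 279 called genes with an absolute difference of at least 3, 62 were higher and 217 lower. The 2 libraries of a group did not overlap those of the other in 7193 genes (49.1%), so that separation of the libraries alone says little of a gene. Leaving out 1 library gave between 729 and 1206 calls, the fewest without labelled *CIC* KO replicate A.

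**Figure D2:**
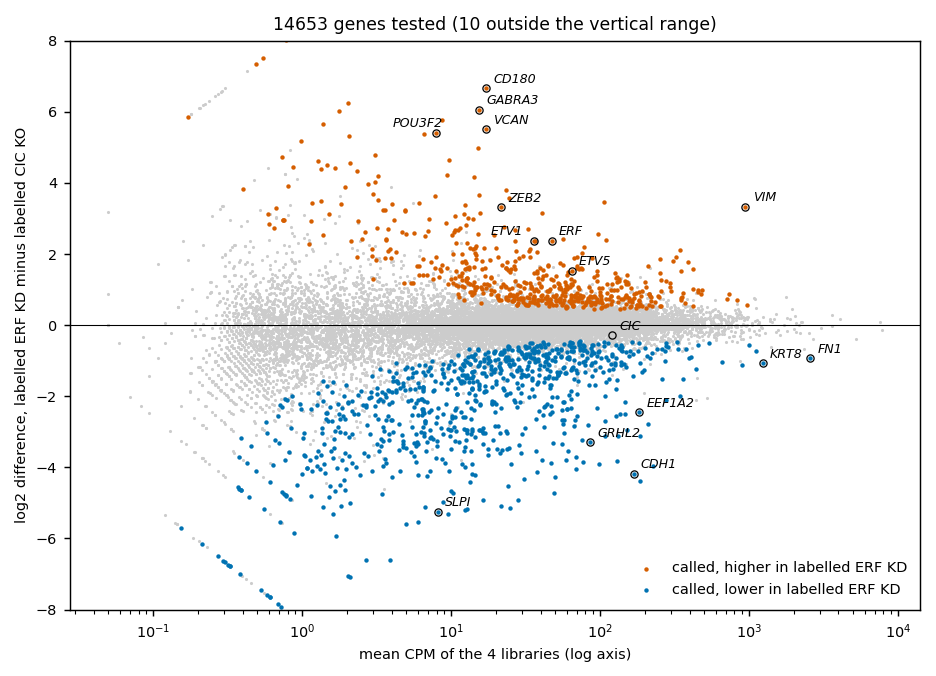
Each point is 1 of 14653 genes, with the mean CPM of the 4 libraries on the horizontal axis (log axis) and the log2 difference, labelled *ERF* KD minus labelled *CIC* KO, on the vertical axis. Called genes are coloured, and 10 genes lie outside the vertical range and are not drawn. The 828 genes called lower outnumber the 549 called higher, and *CDH1*, *VIM* and *CD180* are among the labelled genes far from 0.

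Among protein-coding genes with at least 5 CPM in the higher group and more than 3 counts in every library of the lower, the 8 largest differences on the higher side included cell surface, matrix and neural genes. *CD180*, a toll-like receptor homolog best known from B cells, was 31.5 and 36.8 CPM in labelled *ERF* KD and 0.232 and 0.433 CPM in labelled *CIC* KO, a difference of 6.66 (SE 0.484, adjusted p = 0.000147). *GABRA3*, a subunit of the GABA-A receptor, was 29.5 and 31.1 CPM against 0.511 and 0.385 CPM (difference 6.06). Both were also below 1 CPM in all WT and *ERF* KD + *CIC* KO libraries, so that the high level was seen in labelled *ERF* KD alone among the 4 groups. *VCAN*, which encodes the matrix proteoglycan versican, was 40.1 and 27.4 CPM against 0.418 and 1.06 CPM (difference 5.51). It stood at 5.94 and 5.91 CPM in WT, between the single-loss groups. *POU3F2*, a POU-domain factor of neural development, was 15.5 and 15.4 CPM against 0.232 and 0.481 CPM (difference 5.42). *EDIL3*, *LRRC8C*, *PMP22* and *EML1* made up the rest, with differences from 4.65 to 5.77, and in *EDIL3* the 2 libraries labelled *ERF* KD themselves differed (24.5 and 9.74 CPM).

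The 8 largest differences on the lower side were those of *PKHD1*, *IL1R2*, *RGL3*, *PPP1R14C*, *SLPI*, *KLK7*, *TRIM29* and *SCEL*. *SLPI*, a secreted inhibitor of leukocyte proteases, was 0.336 and 0.497 CPM in labelled *ERF* KD and 15.5 and 16.5 CPM in labelled *CIC* KO, a difference of -5.24 (SE 0.283, adjusted p = 4.82e-05). *KLK7*, a kallikrein protease, was 0.432 and 0.497 CPM against 20.1 and 16.9 CPM (difference -5.30). *TRIM29* was 0.528 and 0.844 CPM against 24.4 and 25.2 CPM (difference -5.17), and *SCEL*, which encodes the cornified envelope protein sciellin, was 0.720 and 0.596 CPM against 32.5 and 16.1 CPM (difference -5.19). In all 4 of these genes WT lay with labelled *CIC* KO, between 17.7 and 28.3 CPM. The double line was below WT and above labelled *ERF* KD in each of them, between 4.79 and 13.5 CPM. *PKHD1*, *IL1R2*, *RGL3* and *PPP1R14C* were lower by differences of -5.55 to -5.07, and the call of *IL1R2* was lost without labelled *ERF* KD replicate A (adjusted p = 0.0774).

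By absolute amount, *VIM*, which encodes the intermediate filament of mesenchymal cells, differed most on the higher side, at 1497 and 1953 CPM in labelled *ERF* KD and 131 and 212 CPM in labelled *CIC* KO (difference 3.33, SE 0.582, adjusted p = 0.00948). *IGFBP4* was 551 and 570 CPM against 112 and 149 CPM, *EFEMP1* 632 and 570 against 182 and 169, and *COL12A1* 648 and 608 against 207 and 217. All 3 encode secreted proteins of the matrix or of growth factor binding, and their differences were 2.10, 1.77 and 1.57. *TOP2A*, the topoisomerase of dividing cells, was 1094 and 819 CPM against 543 and 502 CPM (difference 0.87, adjusted p = 0.0172). On the lower side, *FN1*, the gene of fibronectin, had the largest change in CPM, at 1587 and 1966 CPM against 3185 and 3604 CPM (difference -0.93, SE 0.213, adjusted p = 0.0299). It was followed by *KRT8*, *KRT18*, *GPRC5A* and *KRT19*. The *VIM* call was lost without labelled *CIC* KO replicate A (adjusted p = 0.0721) and that of *FN1* when any 1 of the 4 single-loss libraries was left out.

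Epithelial junction genes were lower in labelled *ERF* KD where called. Of 22 genes of adherens and tight junctions, all of which passed the filter, 17 were called lower in labelled *ERF* KD and none higher, and the median difference was -2.19, beside 5.65% of all genes called lower. *CDH1*, which encodes E-cadherin (chromosome 16, 68737225 to 68835548), was 17.6 CPM in both libraries labelled *ERF* KD and 341 and 297 CPM in labelled *CIC* KO. The difference of -4.18 (SE 0.147, adjusted p = 1.39e-05) was well outside the spread of either group, while WT held 362 and 385 CPM and the double line 258 and 273 CPM. *CLDN7*, a tight junction claudin, was 7.205 and 8.54 CPM against 136 and 126 CPM (difference -4.05), and *CRB3*, a polarity protein of the apical membrane, was 1.78 and 2.14 CPM against 20.7 and 24.5 CPM (difference -3.53). *LSR*, *MARVELD3* and *EPCAM* differed by -3.24, -3.47 and -2.94. *CTNNB1*, the most abundant member of the list and the gene of beta-catenin, was 631 and 549 CPM against 792 and 832 CPM and was called only with the block (difference -0.46, adjusted p = 0.0834, or 0.0311 with the block). Between 13 and 15 of the 22 were called lower in the fits that left out a library.

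Desmosomal genes and keratins were lower as well, beside 5.65% of all genes called lower (8.98% with the block). Of 15 desmosomal genes 13 passed the filter, of which 8 were called lower and none higher (11 lower with the block), with a median of -1.43. *DSP*, which encodes the plaque protein desmoplakin, was 131 and 148 CPM in labelled *ERF* KD and 544 and 559 CPM in labelled *CIC* KO (difference -1.98, SE 0.152, adjusted p = 0.00018). *DSC2* was 13.1 and 11.5 CPM against 43.2 and 49.5 CPM, and *PKP3* was 51.8 and 56.0 CPM against 138 and 191 CPM. In all 3 genes the libraries of a group lay close together relative to the gap between the groups. Of 17 keratins 14 passed the filter, 9 were called lower and none higher (11 lower with the block), and the median was -2.20. *KRT5*, a keratin of basal cells, was 15.03 and 19.2 CPM against 141 and 343 CPM (difference -3.82, adjusted p = 0.00589). The simple-epithelium keratins *KRT8* and *KRT18* stayed abundant, at 695 and 912 CPM against 1380 and 1981 CPM for *KRT8* (difference -1.06) and 533 and 608 CPM against 1100 and 1360 CPM for *KRT18* (difference -1.11). *KRT8* and *KRT18* share 525 exonic bases on opposite strands, and reads there could not be told apart where strand was not used. Without labelled *ERF* KD replicate A, 5 keratins were called, and *KRT8* was not among them. In the lists of junctions, desmosomes, keratins and epithelial regulators, no gene tested was higher at an unadjusted p under 0.05 or by DESeq2.

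Regulators of the epithelial state differed in the same direction as the junctions. Of 18 listed 17 passed the filter, 13 were called lower and none higher (16 lower with the block), with a median of -2.90. Among all genes 5.65% were called lower (8.98% with the block). *GRHL2*, a grainyhead factor that maintains *CDH1* expression, was 14.1 and 17.6 CPM in labelled *ERF* KD and 150 and 160 CPM in labelled *CIC* KO (difference -3.29, SE 0.152, adjusted p = 3.36e-05). *ESRP1*, a splicing regulator of epithelial isoforms, was 10.4 and 14.4 CPM against 197 and 172 CPM (difference -3.90). The membrane protease gene *ST14* was 7.16 and 8.64 CPM against 111 and 110 CPM (difference -3.80), and the gene of its inhibitor, *SPINT2*, was 227 and 148 CPM against 528 and 548 CPM (difference -1.52). *OVOL1*, *OVOL2* and *RAB25* differed by -4.18, -4.12 and -3.90. For *GRHL2*, WT (178 and 167 CPM) and *ERF* KD + *CIC* KO (190 and 188 CPM) lay with labelled *CIC* KO. Among all 1377 called genes, labelled *ERF* KD was farther from WT than labelled *CIC* KO in 1306. In this list WT was nearer to labelled *CIC* KO in all 17 genes by log2 mean CPM (offset 0.5), and the double line in 14. The exceptions were *GRHL3*, *ZNF750* and *EHF*, the last at 0.677 and 2.14 CPM in the double line against 0.480 and 0.447 CPM in labelled *ERF* KD and 7.07 and 6.74 CPM in labelled *CIC* KO.

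Mesenchymal genes went mostly the other way. Of 16 listed 14 passed the filter, 7 were called higher and 1 lower, and the median was 1.28, beside 3.75% of all genes called higher. *ZEB2*, a repressor of E-cadherin, was 40.1 and 38.2 CPM in labelled *ERF* KD and 3.86 and 3.95 CPM in labelled *CIC* KO (difference 3.32, SE 0.232, adjusted p = 0.000127). Its relative *ZEB1* was 41.1 and 49.0 CPM against 8.37 and 9.04 CPM (difference 2.37). *CDH2*, which encodes N-cadherin, was 178 and 195 CPM against 57.1 and 78.3 CPM (difference 1.46). Thus both ZEB genes and N-cadherin were higher in the libraries in which E-cadherin was low. *TWIST1*, *TWIST2*, *TCF4* and *VIM* were the other 4 called higher, with differences of 1.57, 1.30, 1.11 and 3.33, whereas *FN1*, often counted as mesenchymal, was the member called lower. The count of higher members fell to 4 without labelled *ERF* KD replicate A or without labelled *CIC* KO replicate A.

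**Figure D3:**
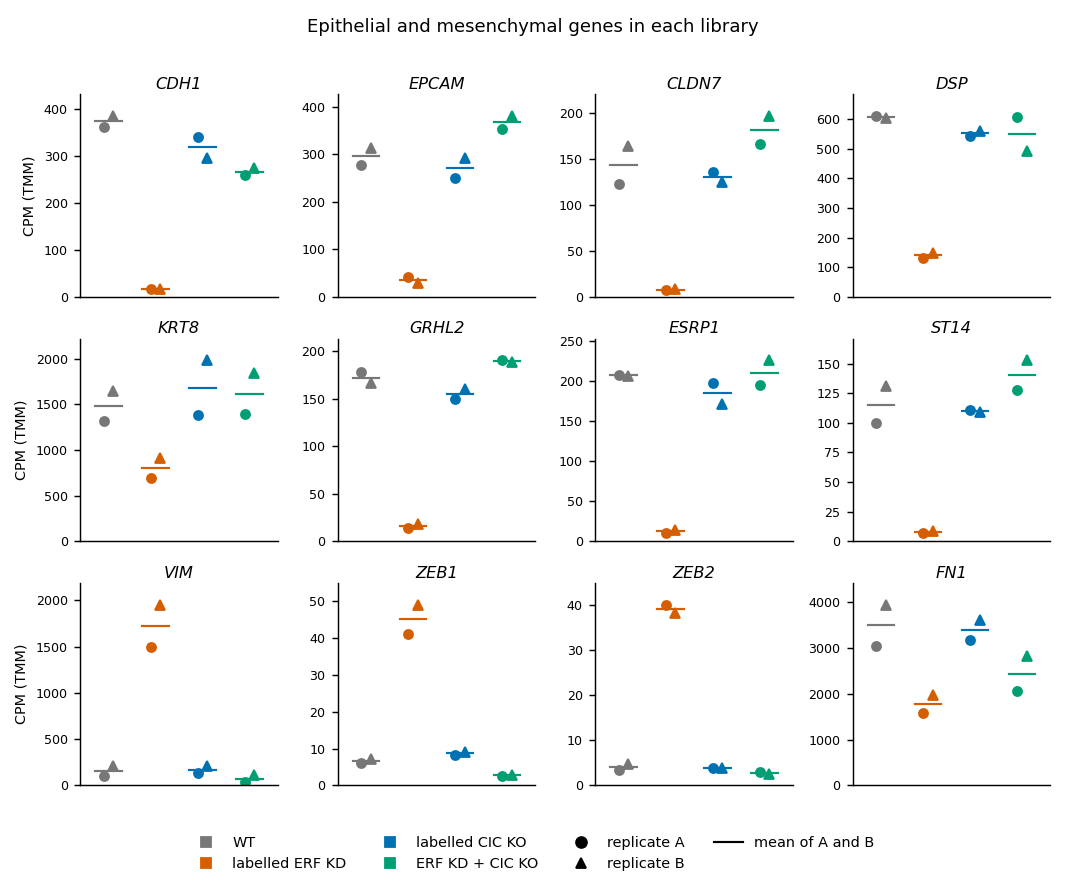
Each point is a library, circles for replicate A and triangles for B, with bars for their mean and expression in CPM from 0 on the vertical axis, for genes of the epithelial and mesenchymal lists in the 4 groups. *CDH1* lies at 17.6 CPM in both libraries labelled *ERF* KD and between 258 and 385 CPM in the other 6, and *ZEB2* at 40.1 and 38.2 CPM against 2.48 to 4.79 CPM.

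Markers of cell types were read in the same libraries, in which 3.75% of all genes were called higher and 5.65% lower (7.56% and 8.98% with the block). The epithelial markers, the labelled type, summed to 1301 and 1586 CPM in labelled *ERF* KD and to 3212 and 4273 CPM in labelled *CIC* KO, and 6 of 7 passed the filter and were all called lower. The basal marker *TP63* was at or near the floor in both groups, with 0 counts in both libraries labelled *ERF* KD and 0 and 12 in those labelled *CIC* KO. Luminal prostate markers summed to 47.5 and 49.0 CPM against 66.4 and 63.3 CPM, with 2 of the 7 tested (of 11) called lower, *TMPRSS2* and *SLC45A3*. *KLK3* had 0 counts in every library. Fibroblast markers summed to 131.7 and 56.6 CPM against 60.8 and 44.4 CPM, with 1 of the 7 tested (of 10) called higher (4 with the block), and *LUM* was at 0 in all libraries. *COL3A1*, the member called, was 9.89 and 1.79 CPM against 0.325 and 0.385 CPM, and its call was lost without labelled *ERF* KD replicate A and without either library labelled *CIC* KO. Endothelial markers summed to 17.9 and 6.36 CPM against 38.6 and 12.0 CPM, blood markers to 9.46 and 1.94 CPM against 7.997 and 3.13 CPM, and neural markers to 117 and 110 CPM against 116 and 142 CPM, and none of the 12 genes tested in these 3 lists (of 23) was called by edgeR, at an unadjusted p under 0.05 or by DESeq2. With the block *CDH5*, an endothelial cadherin, was called lower (13.98 and 2.68 CPM against 34.4 and 7.75 CPM). The part of other cell types in the epithelial and mesenchymal differences was not tested beyond these values. In bulk RNA, fewer cells of a type and less RNA per cell cannot be told apart.

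Genes that anchor epithelium to the basement membrane were lower where called, and their libraries were spread by replicate letter. Of 9 genes of hemidesmosomes and laminin-332, all tested, 3 were called lower and none higher (median -1.09). With the block 5 were lower and 1, *DST*, higher. The shares called lower over all genes were 5.65% and, with the block, 8.98%. *COL17A1*, a transmembrane collagen of hemidesmosomes, was 4.90 and 14.6 CPM in labelled *ERF* KD and 108 and 149 CPM in labelled *CIC* KO (difference -3.72, adjusted p = 0.00949, or 4.35e-05 with the block). *LAMB3* was 20.1 and 34.9 CPM against 129 and 344 CPM (difference -3.10, adjusted p = 0.0169), and *LAMA3* was 33.5 and 43.3 CPM against 154 and 514 CPM (difference -3.12, adjusted p = 0.0313). In each of *COL17A1*, *LAMB3* and *LAMA3*, replicate B was above replicate A in both groups. Without labelled *CIC* KO replicate B, 1 of the 9 was called.

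Matrix genes were higher in part. Of 26 listed 23 passed the filter, 5 were called higher and none lower (12 higher and 3 lower with the block), and the median was 0.71. The shares over all genes were 3.75% higher and 5.65% lower (7.56% and 8.98% with the block). The 5 were *VCAN*, *COL3A1*, *COL12A1*, *COL5A1* and *NID1*. *COL5A1*, a fibrillar collagen, was 664 and 614 CPM in labelled *ERF* KD and 383 and 264 CPM in labelled *CIC* KO (difference 0.98, SE 0.198, adjusted p = 0.0178). *THBS1*, the most abundant member, was 1314 and 3204 CPM against 820 and 1777 CPM and was called with the block alone (difference 0.80, adjusted p = 0.355, or 0.0447 with the block). *LAMA5* and *HSPG2*, which encode basement membrane components, were lower with the block only, by -1.91 and -0.86. When either library labelled *CIC* KO was left out, 3 were called higher. Of 15 matrix proteases and inhibitors 13 passed, with 1 called higher and 1 lower. *TIMP2*, a metalloproteinase inhibitor, was 678 and 512 CPM against 346 and 280 CPM (difference 0.93, adjusted p = 0.0197), and *MMP13*, with under 1.2 CPM in every library, was the lower one, a call lost in all 8 fits without a library. That of *TIMP2* was lost without labelled *ERF* KD replicate A and without labelled *CIC* KO replicate B.

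**Figure D4:**
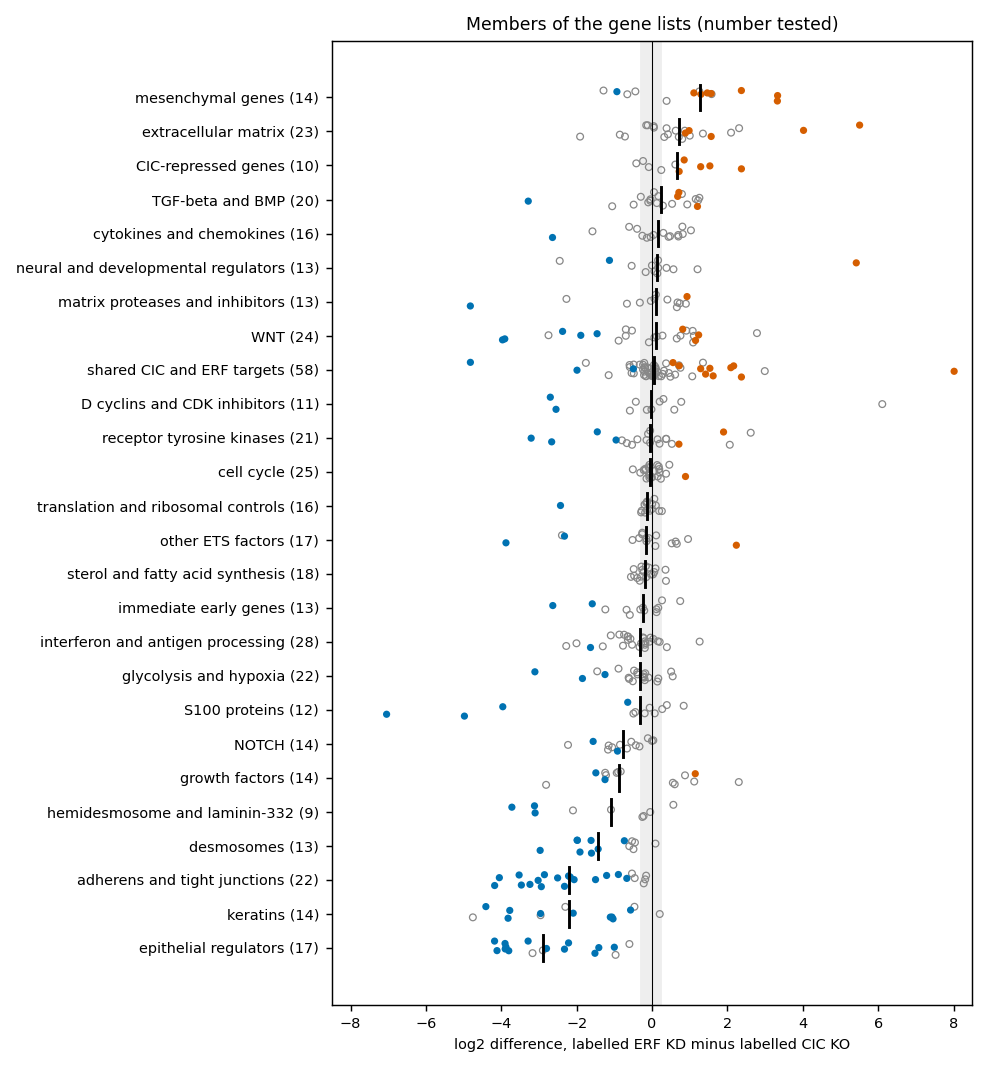
Each point is a gene of a list and shows its log2 difference, labelled *ERF* KD minus labelled *CIC* KO, on the horizontal axis, with lists on the vertical axis, called genes filled, the median of each list as a bar and the quartiles of all tested genes as a grey band. Medians run from -2.90 for the epithelial regulators to 1.28 for the mesenchymal genes, beside 0.00 for all 14653 genes.

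Signaling genes were called in both directions, beside 3.75% of all genes called higher and 5.65% lower. Among receptor tyrosine kinases 21 of 24 passed the filter, 2 were called higher and 4 lower, with a median of -0.05. *MST1R*, the receptor of macrophage-stimulating protein, was 17.7 and 12.5 CPM in labelled *ERF* KD and 104 and 87.9 CPM in labelled *CIC* KO (difference -2.66, SE 0.186, adjusted p = 0.000127). *FGFR2* was 2.40 and 0.546 CPM against 19.5 and 7.99 CPM (difference -3.21, adjusted p = 0.0203). *AXL* was 996 and 1078 CPM against 603 and 663 CPM (difference 0.71, adjusted p = 0.0122). The largest of the 3 in amount was thus higher, and those of lower amount were lower, in labelled *ERF* KD. *DDR2*, *DDR1* and *FGFR3* were also called, at 1.90, -0.96 and -1.45. Without labelled *CIC* KO replicate A, *MST1R* was the only member called.

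Among growth factors 14 of 17 passed, 1 was called higher and 2 lower (4 and 4 with the block). The shares over all genes were 3.75% and 5.65% (7.56% and 8.98% with the block). *VEGFA*, the angiogenic factor, was 69.1 and 66.7 CPM in labelled *ERF* KD and 159 and 164 CPM in labelled *CIC* KO (difference -1.25, SE 0.143, adjusted p = 0.00124). *TGFA*, an EGFR ligand, was 18.6 and 32.4 CPM against 53.3 and 90.3 CPM (difference -1.49, adjusted p = 0.0418), and *FGF2* was 164 and 258 CPM against 89.3 and 102 CPM (difference 1.15, adjusted p = 0.027). *VEGFA* was the only one of these 3 whose call held without any 1 library. The EGFR ligands *AREG* and *EREG* were lower with the block alone, by -2.81 and -1.22.

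In the TGF-beta and BMP list 20 of 23 passed, with 3 called higher and 1 lower, beside 3.75% and 5.65% of all genes. *TGFBR1*, a type I receptor, was 324 and 234 CPM in labelled *ERF* KD and 99.6 and 143 CPM in labelled *CIC* KO (difference 1.204, adjusted p = 0.0105), and *TGFB1* was 113 and 95.3 CPM against 62.6 and 64.5 CPM (difference 0.71, adjusted p = 0.0197). *SKIL*, a feedback repressor of SMAD signaling, was higher by 0.68. A ligand, a receptor and a feedback gene of the pathway were thus each higher by less than 1.3 on the log2 scale, and none of the 3 stayed called without labelled *ERF* KD replicate A or without labelled *CIC* KO replicate A. *ID4*, a BMP-responsive inhibitor of basic helix-loop-helix factors, was 0.961 and 1.59 CPM against 13.3 and 11.6 CPM (difference -3.29, SE 0.275, adjusted p = 0.000271).

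WNT genes split by member. Of 25 listed 24 passed, 3 were called higher and 5 lower (median 0.09), beside 3.75% and 5.65% of all genes. The ligands *WNT10A*, *WNT7A*, *WNT7B* and *WNT11* were lower in labelled *ERF* KD, and *WNT5B* was higher. *WNT10A* was 2.02 and 0.944 CPM against 24.8 and 19.97 CPM (difference -3.91, adjusted p = 0.000204), and *WNT7A* was 0.432 and 0.397 CPM against 7.07 and 6.11 CPM (difference -3.97, adjusted p = 0.00028). *WNT5B* was 194 and 223 CPM against 74.3 and 103 CPM (difference 1.24, adjusted p = 0.00918). Of the receptors, *FZD2* was higher (165 and 142 CPM against 71.0 and 67.0 CPM, difference 1.15) and *FZD6* was lower (difference -1.46). The secreted antagonist *SFRP1* was higher by 0.81, a call lost in 5 of 8 fits without a library, and 1 WNT gene was called higher without labelled *CIC* KO replicate A. In the NOTCH list 14 of 15 passed, and the ligand *JAG2* (104 and 73.3 CPM against 170 and 165 CPM) and the target *NRARP* (2.07 and 2.28 CPM against 7.11 and 5.77 CPM) were called lower, by -0.92 and -1.56. *NOTCH2*, the most abundant member, was 287 and 323 CPM against 311 and 301 CPM, and these values overlapped. Without labelled *CIC* KO replicate A neither of these NOTCH genes was called.

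Of 22 ETS genes other than *ERF* and the PEA3 genes, 17 passed, 1 was called higher and 2 lower (3 and 3 with the block). Among all genes 3.75% were called higher and 5.65% lower (7.56% and 8.98% with the block). *FLI1* was 20.7 and 27.9 CPM in labelled *ERF* KD and 5.44 and 4.86 CPM in labelled *CIC* KO (difference 2.24, SE 0.274, adjusted p = 0.00177). The epithelial ETS factors *EHF* and *ELF3* were lower, *EHF* at 0.480 and 0.447 CPM against 7.07 and 6.74 CPM (difference -3.88, adjusted p = 0.00559) and *ELF3* at 33.9 and 8.49 CPM against 134 and 78.7 CPM (difference -2.32, adjusted p = 0.0313, a call lost without labelled *CIC* KO replicate A and without either library of the double line). *ETS2*, for which ERF is named, was 120 and 118 CPM against 157 and 185 CPM and was not called (difference -0.52, adjusted p = 0.0964). Of 14 immediate early genes 13 passed, and *EGR1* and *JUNB*, both rapid targets of growth factor signaling, were called lower. *EGR1* was 10.3 and 10.4 CPM against 93.8 and 34.5 CPM (difference -2.64, adjusted p = 0.00577), and *JUNB* was 21.9 and 16.5 CPM against 57.4 and 58.1 CPM (difference -1.59, adjusted p = 0.00153). These 2 were thus lower in the libraries in which *ETV1*, *ETV4* and *ETV5* were high. *FOSL1*, another AP-1 member, was 238 and 392 CPM against 127 and 248.97 CPM and was called with the block alone (difference 0.75, adjusted p = 0.27, or 0.0241 with the block).

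The study lists 91 genes bound by both factors in chromatin data, with CIC mapped in PNT2 and ERF in another prostate line. Of these, 58 passed the filter here, 10 were called higher and 3 lower (15 and 3 with the block), beside 3.75% and 5.65% of all genes (7.56% and 8.98% with the block), and the median was 0.05, so that most members, 45, were not called. Besides *ETV1*, *ETV4*, *ETV5* and *SPRED1*, the higher members included *JAZF1*, *ZFHX4*, *NFIB* and *ELAVL2*, with differences of 1.62, 2.16, 2.09 and 1.42. *NFIB*, a nuclear factor I family member, was 57.5 and 50.6 CPM in labelled *ERF* KD and 14.6 and 10.8 CPM in labelled *CIC* KO. *TMEFF2* was 1.78 and 1.34 CPM against 0 in both libraries labelled *CIC* KO, so that no fold is given. The lower members were *CREG2* (10.999 and 17.8 CPM against 52.8 and 61.9 CPM, difference -1.99), *MPRIP* (difference -0.50) and *IL20RA* (0.048 and 0.149 CPM against 2.93 CPM in both, under the floor of 3 counts in a library of the lower group).

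Of 25 cell cycle genes, all tested, *TOP2A* alone was called, with its call kept in 5 of 8 fits without a library, and the median was -0.06, beside 9.4% of all genes called. Of 11 D cyclins and CDK inhibitors, all tested, 2 were called lower (1 higher and 3 lower with the block). Among all genes 5.65% were called lower (7.56% higher and 8.98% lower with the block). *CDKN1A*, which encodes p21, was 27.9 and 46.4 CPM in labelled *ERF* KD and 196 and 239 CPM in labelled *CIC* KO (difference -2.55, SE 0.414, adjusted p = 0.00694), and *CCND2* was 15.2 and 42.7 CPM against 164 and 213 CPM (difference -2.70, adjusted p = 0.00874). *CCND1*, the most abundant D cyclin, was 763 and 929 CPM against 764 and 1101 CPM and did not separate the groups. Of 16 genes of translation and ribosomes 1 was called, *EEF1A2*, a tissue-restricted elongation factor, at 56.6 and 58.1 CPM against 299 and 324 CPM (difference -2.44, SE 0.133, adjusted p = 4.82e-05). *EEF1A1*, its widely expressed relative, was 6894 and 7999 CPM against 7044 and 9310 CPM (adjusted p = 0.794). Of 18 tested genes of sterol and fatty acid synthesis none was called by edgeR without the block or by DESeq2, 1 was past an unadjusted p of 0.05, and 1, *SREBF2*, was called with the block.

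Of 22 glycolysis and hypoxia genes 3 were called lower (8 lower and 1 higher with the block), beside 5.65% of all genes (8.98% and 7.56%). The 3 were *VEGFA*, *EGLN3* and *CA9*, the last of which was called in 2 of 8 fits without a library. *EGLN3*, a prolyl hydroxylase induced by hypoxia, was 1.49 and 1.24 CPM in labelled *ERF* KD and 9.21 and 14.5 CPM in labelled *CIC* KO (difference -3.11, adjusted p = 0.000589). *GAPDH* was 4051 and 4979 CPM against 4906 and 6963 CPM and was not called (adjusted p = 0.483). Of 28 tested interferon and antigen processing genes 1, *IRF7*, was called lower (3.57% called, beside 9.4% of all genes). With the block 7 were called lower, beside 8.98% of all genes. *IRF7* was 13.2 and 6.11 CPM against 32.5 and 28.3 CPM (difference -1.65, adjusted p = 0.046), a call kept in 3 of 8 fits without a library. Of 16 tested cytokine and chemokine genes *IL32* was called lower (0.720 and 1.04 CPM against 3.67 and 7.46 CPM), a call kept in 5 of 8 fits. Of 12 tested S100 genes 4 were called lower and none higher, beside 5.65% of all genes called lower. *S100A14* was 0.528 and 0.546 CPM against 19.9 and 14.3 CPM (difference -4.98, adjusted p = 0.000452), and *S100A10* differed by -0.65. *S100A9* and *S100P* were near or under the floor in labelled *ERF* KD, against 3.81 and 4.23 CPM and 1.86 and 2.89 CPM in labelled *CIC* KO. Of 13 tested neural and developmental regulators *POU3F2* was called higher and *SOX4* lower, the latter at 51.8 and 47.8 CPM against 115 and 104 CPM (difference -1.13).

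The calls were not spread evenly over the genome. On the short arm of chromosome 1, 863 genes were tested, 22 were called higher and 116 lower (15.99% called), and 77.1% of all its differences were negative, with a median of -0.28. The long arm of the same chromosome held 658 tested genes, with 31 higher and 51 lower (12.5%) and a median of 0.00, and the genes of the other chromosomes had 8.81% called. The median deviation of the short-arm genes from their mean over the 8 libraries was -0.184 and -0.168 in labelled *ERF* KD and between -0.00085 and 0.0988 in the other 6 libraries. Both libraries of that group were thus low and the other groups were not. Along the arm, 13 of the 14 stretches of 60 neighboring genes had a negative median, and the stretch from *PTGFR* to *DR1* went the other way, with 10 higher and 4 lower and a median of 0.21. Leaving out each library gave short-arm medians from -0.31 to -0.27. Genes of chromosome 9 had a median of 0.16 and those of chromosome 21 of -0.24. The arms were divided at the widest gap between tested genes, the chromosomes were chosen after their values were seen, and DNA copy number was not analysed here.

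**Figure D5:**
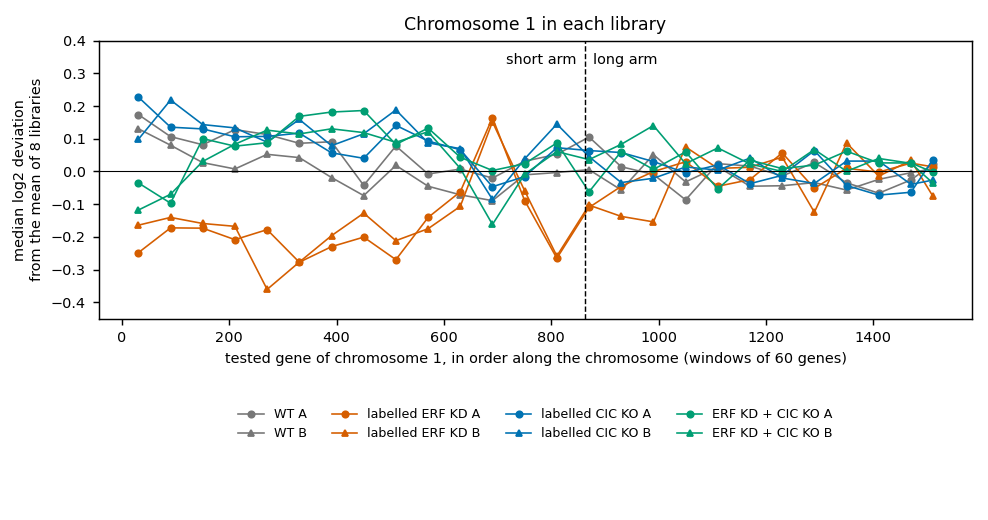
The horizontal axis is the rank of the tested genes along chromosome 1 in windows of 60 genes, and the vertical axis is the median deviation from the mean over 8 libraries (log2), with a line for each library. The 2 libraries labelled *ERF* KD lie below the other 6 over most of the short arm, apart from the window from *PTGFR* to *DR1*, and among them on the long arm.

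The following values touch on whether the labels of the single-loss groups were exchanged. *ERF* mRNA was lower in the libraries labelled *CIC* KO than in those labelled *ERF* KD, by 2.38 on the log2 scale. *ETV1*, *ETV4* and *ETV5*, which CIC represses, were higher in labelled *ERF* KD. The level of *ETV1* in labelled *CIC* KO (11.8 and 11.4 CPM) was that of WT (11.4 and 11.7 CPM). Over the 10 CIC-repressed genes the median of labelled *CIC* KO minus WT was 0.31. It ran from -0.07 in *SPRED1* to 0.79 in *SPRY4* (adjusted p = 0.9997 for both by edgeR). In PNT2 the study reports more *ETV1* after loss of either gene. It reports more *ETV4* and *ETV5* after *CIC* loss, but not after *ERF* silencing alone. A high *ETV1* thus does not tell *CIC* loss from *ERF* loss. Of the 10 CIC-repressed genes 5 were not called, and *SPRED2*, *DUSP4* and *DUSP5* had negative differences (-0.09, -0.24 and -0.42). *CIC* mRNA was lower in labelled *ERF* KD by 0.28, without passing the test. Exchanging the labels would only negate the contrast between the single-loss groups. The sign of each such difference would turn, and its size, its SE and its call would stay the same. The lists of junctions, desmosomes, keratins and epithelial regulators held 66 tested genes. Of these, WT was nearer to labelled *CIC* KO than to labelled *ERF* KD in 61. Among all 1377 called genes, labelled *ERF* KD was likewise the group farther from WT in 1306, so this nearness was not particular to these lists. The double line was nearer to labelled *CIC* KO in 53 of the 66, with no share over all genes given here. The 13 genes in which the double line was nearer to labelled *ERF* KD included 5 keratins. The cut site of the guide and the immunoblots and qPCR that the study made of its lines were not analysed here, and which naming holds was not tested.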

How the data were processed

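RNA was prepared with a Qiagen RNeasy kit, and Novogene made and sequenced the libraries. For each transcript the authors deposited estimated counts, which are not normalized, and TPM, in the column format of kallisto, while the study's methods name RSEM for gene-level expression. The version, the annotation and the use of strand are not given in the sources used here, and the labels name hg19. Transcripts were matched by identifier to GENCODE release 29 (GRCh38), which held 153245 of 180253, and 93.2% to 93.3% of the counts. These were summed over 33791 genes and rounded. Genes that share reads carry an added uncertainty.

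TMM normalization, filterByExpr and the quasi-likelihood test (glmQLFTest) of edgeR 4.0.16 in R 4.3.3 were used, with the 4 groups in the model. The biological coefficient of variation was 0.197, and 0.142 with the replicate letter as a block. Same-letter libraries deviated together in all 6 pairs of groups (r across genes from 0.136 to 0.335), although no source explains the letters. The main fit and all fits without a library left out the block, so they ignore any pairing by letter. Whether calls lost without a library would be kept with the block was not tested. Replicates differed by more than sampling noise. Alternatives were DESeq2 1.42.0, upper-quartile scaling, no filter, the 4 single-loss libraries alone, length-scaled counts, limma 3.58.1 on log2(TPM + 1) and log2(TPM + 0.1), a minimum absolute difference of 1 and each library left out.

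Genes were named by rule: *ERF*, *CIC*, 10 CIC-repressed genes, the 8 largest log2 and 5 largest CPM differences in each direction among protein-coding genes called in both fits, and up to 4 genes of each of 32 lists (smallest adjusted p, and the most abundant member). Other genes named were chosen after their values were seen. The members and lists were chosen with earlier results of these data known.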

Additional observations from a re-analysis of the deposited data

How the results depend on the processing

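The count of 1377 called genes became 2424 with the replicate block, 2367 with no filter on low counts and 829 with the 4 single-loss libraries alone, of which 1377, 1349 and 801 were among the 1377. Without 1 library it ran from 729 to 1206, and the count of 729 came without labelled *CIC* KO replicate A. DESeq2, upper-quartile scaling, length-scaled counts, limma on either TPM scale and a minimum absolute difference of 1 gave between 962 and 1897 calls, and 30.6% to 45.7% of the calls were higher in labelled *ERF* KD under all settings. None of the 140 named genes changed sign of a call. In 55 cases a named gene lost its call under a setting other than leaving out a library, in 44 it gained one, and 91 calls were lost and 6 gained when a library was left out. Of the 90 named genes called, 59 stayed called in all 8 fits without a library. Blocked values are printed in the report for some, and not all, of the genes whose call they change. With 2 libraries a group, an exact permutation test over libraries cannot pass the threshold and was not used. Genes near the floor of 3 counts are limited by depth.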
